A study of Homo sapiens with 4 samples.

Results

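The genes described here are 34 members of endoplasmic reticulum (ER)-associated degradation (ERAD) and of the ER stress sensors, out of 22187 genes listed in the series. They were chosen by symbol from the pathway: 28 parts of the degradation machinery, 4 stress sensors and the 2 site proteases that cut ATF6. The choice was made with earlier results of these data known. The samples are 4 RNA sequencing libraries from KMS18 and KMS28BM, human multiple myeloma plasma cell lines from bone marrow. Both lines carry the t(4;14) translocation. Each line gave 1 library from cells in which PKCα, a kinase encoded by PRKCA, was stably knocked down, and 1 library from cells with a luciferase control construct. Whether the knockdown cells were a pool or a clone, and the sequence of the construct, are not given in the sources used here.

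ERAD removes proteins that fail to fold in the ER. Mannosidases trim the sugar of a trapped glycoprotein, lectins read the trimmed sugar, and a membrane ubiquitin ligase built around SYVN1 (HRD1) and SEL1L passes the protein back to the cytosol. There the ATPase VCP extracts it and the proteasome degrades it. The sensors IRE1 (gene ERN1), PERK (gene EIF2AK3) and ATF6 detect unfolded protein and raise chaperones and ERAD genes, and plasma cells depend on this response because they secrete antibody.

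PRKCA was at 1.47 FPKM in KMS18 knockdown cells against 7.46 FPKM in KMS18 control cells, and at 2.43 FPKM in KMS28BM knockdown cells against 10.86 FPKM in KMS28BM control cells. FPKM is the authors' fragment count scaled by gene length and by library size. PRKCA had a log2 difference of -2.34, knockdown minus control, with SE 0.11 and an adjusted p of 0.00153 in edgeR. The libraries held between 37940949 and 39507281 expected counts. All 34 genes were detected in all 4 libraries, with 156 to 43633 expected counts each, and all 34 passed the filter on low counts. The plasma cell marker SDC1 lay between 143 and 239 FPKM in the 4 libraries. Of 9 plasma cell markers, 7 were lower in knockdown cells of both lines, CD38 was higher in both, and JCHAIN differed between lines. The summed plasma cell markers were at 6599 and 7933 FPKM in knockdown cells of KMS18 and KMS28BM, against 7690 and 8661 FPKM in their control cells. The summed T cell markers were at 26.5 and 3.52 FPKM in knockdown cells of KMS18 and KMS28BM, against 9.84 and 1.17 FPKM in their control cells, mostly CD3E. TRAC was at 4.94 and 0.11 FPKM in knockdown cells of KMS18 and KMS28BM, against 2.13 and 0.03 FPKM in their control cells. CD3G and CD2 were at 0.40 FPKM or less in every library, and CD3D was at 0.06 FPKM in KMS18 knockdown cells against 0.22 FPKM in KMS18 control cells and listed at 0 in KMS28BM. The part of these markers in the results below was not tested. In such bulk RNA, fewer cells of a type and less RNA per cell cannot be told apart.

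Knockdown cells of both lines held less mRNA of the membrane ligase core, of EDEM1 and EDEM3, of ERLIN1, of the shuttle RAD23B and of the IRE1 sensor. Over both lines 9 of 34 genes fell and 0 rose (edgeR quasi-likelihood test, Benjamini-Hochberg adjusted p under 0.05 over 14870 genes, with cell line as a block). Those that fell were SEL1L, SYVN1, DERL3, HERPUD1, EDEM1, EDEM3, ERLIN1, RAD23B and ERN1. They make up 26.5% of the 34 genes, against a background of 5.25% lower and 3.57% higher among all genes tested. Among the 7714 genes with a mean count at least that of the least abundant of the 34, 8.47% fell. The 34 were chosen with earlier results of these data known, so their share is a description. The median log2 difference, knockdown minus control, was -0.13 over the 34 genes and 0.02 over all genes tested. At an unadjusted edgeR p under 0.05, 13 of the 34 were lower and 0 higher, against 3919 of all 14870 genes tested in either direction. DESeq2 and limma also called 0 of the 34 higher. Of the calls over all genes, 59.5% were lower, against 47.3% with limma on log2(FPKM + 1).

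A line has 1 library per construct, so a p-value says nothing of separate cultures. It rests on the similarity of the 2 lines (1 residual degree of freedom) and on the spread over all genes tested (5.85 prior degrees of freedom). All 9 calls were lost without the cell line block, and 8 of the 9, all but ERLIN1, were lost with no filter on low counts (adjusted p = 0.0586 to 0.0932).

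**Figure D1:**
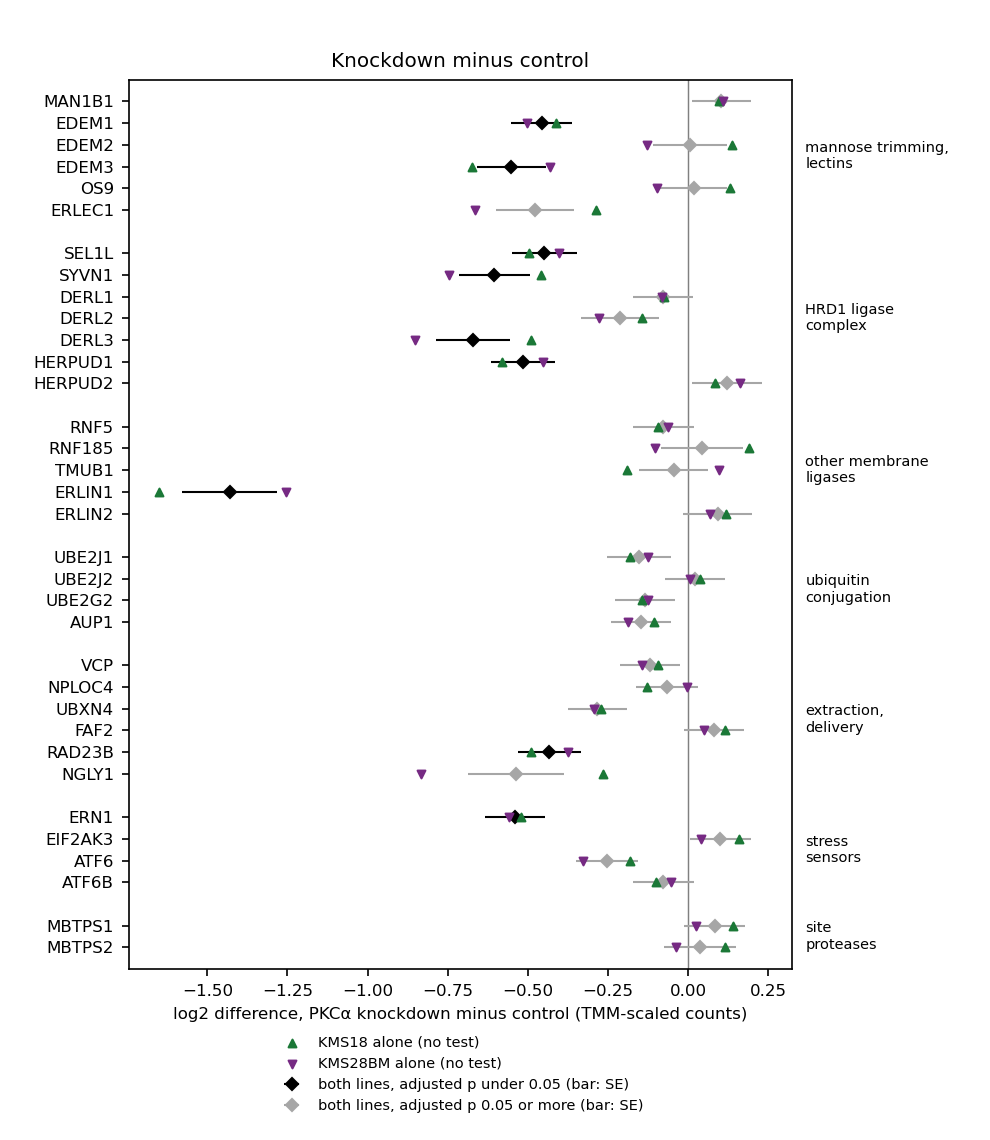
Log2 difference, knockdown minus control, of the 34 genes on TMM-scaled counts, grouped by role. Diamonds are the fit over both lines with its standard error, triangles are each line alone, and the 9 black diamonds (edgeR adjusted p under 0.05) lie between -1.43 for ERLIN1 and -0.43 for RAD23B.

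The HRD1 ligase complex held 4 of the 9 genes that fell, out of 7 members. SEL1L (chr14:81471549-81533861, minus strand, GRCh38) is the adaptor that holds the complex together and brings substrates to it. It was at 14.33 FPKM in KMS18 knockdown cells against 19.48 FPKM in KMS18 control cells. In KMS28BM it was at 118 FPKM in knockdown cells against 147 FPKM in control cells. SEL1L was lower in the knockdown of both lines, by less than the gap between the lines. Over both lines the log2 difference was -0.45 (SE 0.10 and edgeR adjusted p = 0.0423, lower in 2 of 2 lines). The adjusted p was 0.0676 with limma on log2(FPKM + 1), 0.0515 with upper quartile scaling and 0.0584 with 1 row per symbol, and ran from 0.000142 to 0.0888 over the alternatives with the line block.

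SYVN1 (chr11:65121780-65134533, minus strand, GRCh38) is the ubiquitin ligase itself. It was at 47.27 FPKM in KMS18 knockdown cells against 63.12 FPKM in KMS18 control cells, and at 101 FPKM in KMS28BM knockdown cells against 161 FPKM in KMS28BM control cells. The log2 difference was -0.60 (SE 0.11 and edgeR adjusted p = 0.0227). Its exons overlap those of MRPL49 on the opposite strand, and the library kit does not keep strand. MRPL49 had a log2 difference of 0.00 (SE 0.10 and edgeR adjusted p = 0.999). The ratio of SYVN1 to SEL1L in FPKM was 3.30 in KMS18 knockdown cells and 3.24 in KMS18 control cells, while in KMS28BM it was 0.853 in knockdown cells and 1.10 in control cells.

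The derlins form part of the membrane channel of the complex, and DERL3 was the 1 of 3 that passed the test. DERL3, the derlin enriched in secretory cells, was at 85.02 FPKM in KMS18 knockdown cells against 117 FPKM in KMS18 control cells. In KMS28BM, DERL3 was at 134 FPKM in knockdown cells against 225 FPKM in control cells. DERL3 was thus lower in the knockdown of each line, with a log2 difference of -0.67 (SE 0.12 and edgeR adjusted p = 0.0201). The tables list DERL3 under 2 identifiers that share its reads, and both were lower, at 44.45 and 40.57 FPKM in KMS18 knockdown cells against 60.89 and 55.94 FPKM in KMS18 control cells. Exons of DERL3 overlap those of SMARCB1, which had 0.10 (SE 0.10 and edgeR adjusted p = 0.587). DERL1 had -0.08 (SE 0.09 and edgeR adjusted p = 0.65) and DERL2 had -0.21 (SE 0.12 and edgeR adjusted p = 0.317), which turned to 0.0031 with limma on log2(FPKM + 1). DERL3 stood at 0.902 times the FPKM of DERL1 in KMS18 knockdown cells and 1.21 times in KMS18 control cells. In KMS28BM it stood at 1.69 times in knockdown cells and 2.81 times in control cells.

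HERPUD1, a ubiquitin-like membrane protein that recruits and organises the ligase and a textbook target of the stress sensors, was the most abundant of the 34 genes in KMS28BM. It was at 96.37 FPKM in KMS18 knockdown cells against 136 FPKM in KMS18 control cells, and at 252 FPKM in KMS28BM knockdown cells against 324 FPKM in KMS28BM control cells. The log2 difference was -0.52 (SE 0.10 and edgeR adjusted p = 0.0268). Its relative HERPUD2 was at 21.19 and 11.43 FPKM in KMS18 and KMS28BM knockdown cells against 22.37 and 9.07 FPKM in the control cells of the same lines (log2 difference 0.12, SE 0.11 and edgeR adjusted p = 0.538).

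The windows from 250 bases before to 50 bases after the RefSeq gene start (GRCh38.p14) were searched on both strands for the letters that ATF6 and XBP1 are known to bind, because several of these genes moved together. The table holds such a window for 29 of the 34 genes, all but DERL1, DERL3, RNF185, ERLIN1 and ERLIN2. The ER stress response element, CCAAT and CCACG with 9 bases between them, was in 0 of the 29 and in 0.0916% of all 27305 gene windows. The second form, ATTGG and CCACG with 1 base between them, was in HERPUD1 and in 0.0696% of all windows. The shorter core GACGTGG can overlap the CCACG end of the other patterns and was in 5 of the 29 (17.2%) and in 3.82% of all windows. The sites are shown on the gene's strand with the matching letters in capitals. CCACGTC is the core read from the opposite strand.
HERPUD1 (chr16:56932016-56932045, plus strand): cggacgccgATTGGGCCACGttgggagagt
EDEM3 (chr1:184755003-184755032, minus strand): ccgccttttgtCCACGTCtcacttctcctg
ERLEC1 (chr2:53787064-53787093, plus strand): ctccggaaggaGACGTGGcggcggttgggc
EIF2AK3 (chr2:88627415-88627444, minus strand): gcggcagaggccgggctgaGACGTGGccag
UBE2J1 (chr6:89352935-89352964, minus strand): cgaagctactgCCACGTCagggcaacttca
VCP (chr9:35072795-35072824, minus strand): tgcggccaattGACGTGGcgttactaggcg

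Of the 6 genes with such letters, HERPUD1 and EDEM3 fell, and ERLEC1, EIF2AK3, UBE2J1 and VCP did not pass the test. Among all genes tested, 46 of 557 with the core fell (8.26%), 4 of 14 with the second form and 6 of 15 with the first. By position from the gene start, the HERPUD1 match spans -117 to -107 and the EDEM3 match -163 to -157. SEL1L, SYVN1, EDEM1, RAD23B and ERN1, which also fell, had none of these letters in the window. A match is a description of sequence, and binding was not measured here.

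Mannose trimming and lectin recognition split by gene, with 2 of 6 members lower. EDEM1 (chr3:5187646-5219957, plus strand, GRCh38) speeds mannose removal from misfolded glycoproteins. It was at 18.64 FPKM in KMS18 knockdown cells against 23.85 FPKM in KMS18 control cells, and at 30.85 FPKM in KMS28BM knockdown cells against 42.30 FPKM in KMS28BM control cells (log2 difference -0.46, SE 0.09 and edgeR adjusted p = 0.0334). The adjusted p was 0.0622 with limma on log2(FPKM + 1) and 0.0501 with 1 row per symbol, and ran from 0.000841 to 0.0809 over the alternatives with the line block. EDEM3 (chr1:184690231-184754913, minus strand, GRCh38), a related mannosidase, was at 36.43 and 66.51 FPKM in KMS18 and KMS28BM knockdown cells against 55.44 and 84.75 FPKM in the matching control cells. Its log2 difference was -0.55 (SE 0.11 and edgeR adjusted p = 0.0276). EDEM2, which makes the first cut that commits a glycoprotein to degradation, was at 25.84 and 19.30 FPKM in knockdown cells against 22.49 and 20.27 FPKM in control cells, in the same order of lines, with 0.01 on the log2 scale (SE 0.12 and edgeR adjusted p = 0.984).

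MAN1B1, the other trimming mannosidase, and OS9, a lectin that hands trimmed glycoproteins to SEL1L, had log2 differences of 0.10 (SE 0.09) and 0.02 (SE 0.10), with edgeR adjusted p of 0.534 and 0.944. The second lectin, ERLEC1, stood at 19.69 FPKM in KMS18 knockdown cells against 22.73 FPKM in KMS18 control cells. In KMS28BM it stood at 29.39 FPKM in knockdown cells against 43.05 FPKM in control cells. Both lines were lower, by different amounts, and ERLEC1 did not pass the test (log2 difference -0.48, SE 0.12 and edgeR adjusted p = 0.0573).

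ERLIN1 showed the lowest log2 difference of the 34 genes. Erlins are ring-forming membrane proteins that bring activated IP3 receptors to a ligase, and ERLIN1 (chr10:100150094-100188334, minus strand, GRCh38) forms the ring with ERLIN2. ERLIN1 was at 2.49 FPKM in KMS18 knockdown cells against 6.03 FPKM in KMS18 control cells, on 156 and 471 expected counts. In KMS28BM it was at 8.97 FPKM in knockdown cells against 21.00 FPKM in control cells, on 675 and 1539 counts. The knockdown cells thus kept 41.3% of the control FPKM in KMS18 and 42.7% in KMS28BM, and the log2 difference was -1.43 (SE 0.15 and edgeR adjusted p = 0.0056). On TMM-scaled counts, which are not corrected for gene length, the log2 ratio was -1.65 in KMS18 and -1.25 in KMS28BM. The listed length of ERLIN1 was 1699 bases in KMS18 knockdown cells against 2098 bases in KMS18 control cells. In KMS28BM the listed length of ERLIN1 was 1968 bases in knockdown cells against 1904 bases in control cells. Its partner ERLIN2 was at 6.75 and 10.58 FPKM in knockdown cells against 6.15 and 10.45 FPKM in control cells of KMS18 and KMS28BM (log2 difference 0.09, SE 0.11 and edgeR adjusted p = 0.646).

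The ERLIN1 to ERLIN2 ratio in FPKM was therefore 0.369 in KMS18 knockdown cells and 0.980 in KMS18 control cells, and 0.848 in KMS28BM knockdown cells and 2.01 in KMS28BM control cells. Exons of ERLIN1 overlap those of CHUK, a kinase of NF-kB signalling on the same strand, so their reads are uncertain. CHUK fell by 0.52 (log2, SE 0.10 and edgeR adjusted p = 0.0305). CHUK was at 4.41 and 12.12 FPKM in knockdown cells against 5.53 and 13.47 FPKM in control cells of KMS18 and KMS28BM, a smaller difference than that of ERLIN1 in each line.

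The other membrane ligases and partners did not pass the test. RNF5 and RNF185 are related ligases of the ER membrane, with log2 differences of -0.08 (SE 0.10) and 0.04 (SE 0.13). TMUB1, a ubiquitin-like membrane protein, had -0.05 (SE 0.11), and the 3 genes had edgeR adjusted p-values from 0.661 to 0.881. RNF5 is listed under 7 identifiers, copies of its region on alternate assemblies, and 6 of them share its reads equally at 9.04 FPKM each in KMS18 control cells.

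None of the 4 ubiquitin-conjugating genes passed the edgeR test. At an unadjusted p under 0.05 the count was also 0, as it was with DESeq2 and limma. UBE2J1, the tail-anchored conjugating enzyme of the ER, was at 110.0 and 119.7 FPKM in KMS18 and KMS28BM knockdown cells against 119.7 and 124 FPKM in the control cells. UBE2G2, the enzyme that serves HRD1 and related ligases, and AUP1, the lipid droplet protein that anchors it, had log2 differences of -0.13 (SE 0.09) and -0.15 (SE 0.09). UBE2J2 had 0.02 (SE 0.09). The 4 edgeR adjusted p-values ran from 0.38 to 0.919.

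Among the 6 extraction and delivery genes, RAD23B alone fell. RAD23B (chr9:107283137-107332194, plus strand, GRCh38) shuttles ubiquitinated proteins to the proteasome and also takes part in DNA repair. It was at 105 FPKM in KMS18 knockdown cells against 158 FPKM in KMS18 control cells, and at 104 FPKM in KMS28BM knockdown cells against 131 FPKM in KMS28BM control cells (log2 difference -0.43, SE 0.10 and edgeR adjusted p = 0.0424). The adjusted p was 0.0506 with upper quartile scaling and 0.0627 with 1 row per symbol, and ran from 0.000939 to 0.0932 over the alternatives with the line block. VCP, the ATPase that pulls substrates out of the membrane, was at 61.28 and 81.44 FPKM in KMS18 and KMS28BM knockdown cells against 63.42 and 88.23 FPKM in control cells. Its log2 difference was -0.12 (SE 0.09 and edgeR adjusted p = 0.483).

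The VCP cofactor NPLOC4 had a log2 difference of -0.07 (SE 0.10), and the membrane tethers of VCP, UBXN4 and FAF2, had -0.28 (SE 0.09) and 0.08 (SE 0.09). Their edgeR adjusted p-values were 0.725, 0.108 and 0.638. NGLY1, which strips sugar from extracted glycoproteins, was at 29.85 FPKM in KMS18 knockdown cells against 33.81 FPKM in KMS18 control cells. In KMS28BM it was at 8.01 FPKM in knockdown cells against 14.25 FPKM in control cells. The lines moved the same way by unequal amounts, and NGLY1 did not pass the test (log2 difference -0.54, SE 0.15 and edgeR adjusted p = 0.0725).

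Of the 4 stress sensors, ERN1 fell and the other 3 did not pass the test. ERN1 (chr17:64039142-64130819, minus strand, GRCh38) encodes IRE1, the kinase and RNase that splices XBP1 mRNA. Its expected counts were 2324 in KMS18 knockdown cells against 3202 in KMS18 control cells, and 4241 in KMS28BM knockdown cells against 5976 in KMS28BM control cells. On counts the log2 difference was -0.54 (SE 0.09 and edgeR adjusted p = 0.0197). In FPKM the gap was smaller, at 10.06 and 19.11 FPKM in knockdown cells against 12.42 and 23.47 FPKM in control cells of KMS18 and KMS28BM, and limma on log2(FPKM + 1) gave -0.28 (adjusted p = 0.142, the highest over the alternatives with the line block, the lowest being 0.000257 with DESeq2).

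FPKM is scaled by gene length, and the counts tested here are not corrected for it. The part of length in the count difference of ERN1 was not tested. The listed length of ERN1 differed with the construct. It was 6111 bases in KMS18 knockdown cells against 6807 bases in KMS18 control cells, and 5700 bases in KMS28BM knockdown cells against 6475 bases in KMS28BM control cells. Among the 30 genes here with a single identifier and at least 5 FPKM in every library, ERN1 was the 1 whose listed length moved by over 10% the same way in both lines (3.33%), against 1.58% of 6894 genes measured alike.

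PERK (EIF2AK3), the kinase that slows translation, was at 55.09 and 37.13 FPKM in KMS18 and KMS28BM knockdown cells against 49.02 and 37.02 FPKM in control cells (log2 difference 0.10, SE 0.10 and edgeR adjusted p = 0.563). ATF6, a transcription factor held in the ER membrane until stress, was at 21.29 and 22.63 FPKM in knockdown cells against 23.58 and 29.40 FPKM in control cells (log2 difference -0.25, SE 0.10 and edgeR adjusted p = 0.154). ATF6B, its relative, had a log2 difference of -0.08 (SE 0.10 and edgeR adjusted p = 0.667). ATF6B is listed under 4 identifiers, and different copies hold most of its counts in the 2 lines, so only the sum is given here. The proteases that release ATF6 in the Golgi, MBTPS1 and MBTPS2, had log2 differences of 0.08 (SE 0.10) and 0.04 (SE 0.11), with edgeR adjusted p of 0.639 and 0.881 and 0 of 2 at an unadjusted p under 0.05, with DESeq2 or with limma.

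**Figure D2:**
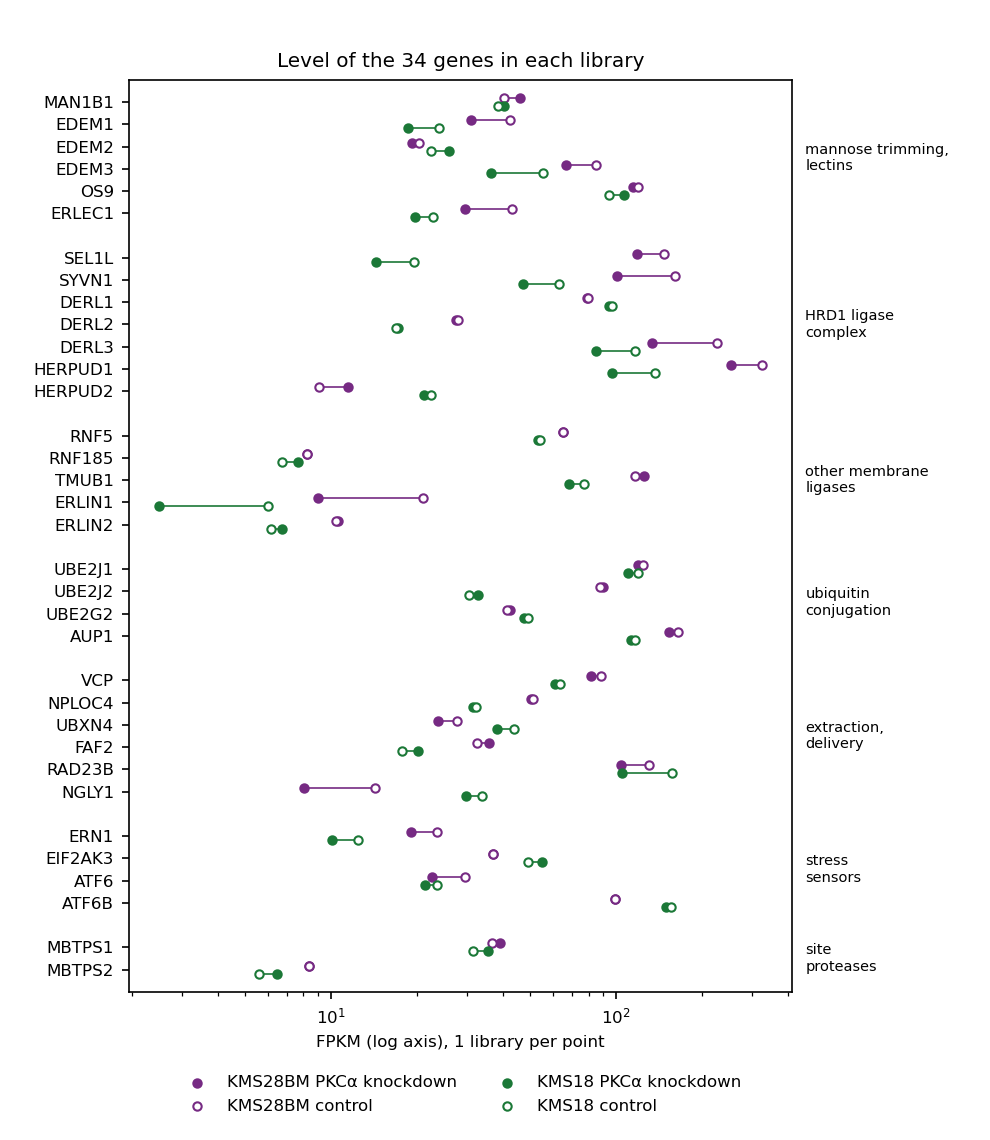
FPKM of the 34 genes on a log axis, with 1 point per library. Filled points are PKCα knockdown cells and open points control cells, a line joins the 2 libraries of a cell line, and SEL1L in KMS28BM sits at 118 and 147 FPKM, to the right of 14.33 and 19.48 FPKM in KMS18, and ERLIN1 shows the longest lines.

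The 2 lines moved most of these genes the same way. On TMM-scaled counts 22 of 34 genes (64.7%) were lower in the knockdown of both lines and 7 (20.6%) were higher in both. Of 14003 genes tested with counts in every library, 34.2% were lower in both lines and 36.5% higher in both, so 70.7% had the same sign, against 85.3% of the 34. Across the 34 genes the log2 ratios of KMS18 and KMS28BM correlated at 0.838 (Pearson) and 0.774 (Spearman), against 0.416 and 0.499 across the 14003 genes. These are correlations across genes, which are not independent replicates, and ERLIN1 lies far from the rest. Some of the 14003 genes were less abundant than the least abundant of the 34, which had a mean count of 710. The part of abundance in the gaps between the 34 and the 14003 genes was not tested. The 9 genes that fell were called on these same libraries, so the intervals below describe them and add no support. Exact Poisson 95% intervals of the count ratio, which cover counting error only, lay below 0 in both lines for each of the 9. For SEL1L they ran from -0.55 to -0.44 in KMS18 and from -0.42 to -0.38 in KMS28BM, and for ERLIN1 from -1.92 to -1.39 and from -1.39 to -1.12.

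Within a line only sizes can be read, because 1 library stands for each construct. Past 1.5-fold on log2(FPKM + 1), among genes reaching 1 FPKM in the line, 2 of 34 genes were lower in KMS18 knockdown cells (5.88%, background 4.12%) and 0 higher (background 5.52%). In KMS28BM knockdown cells 4 of 34 were lower (11.8%, background 3.9%) and 0 higher (background 6.21%). The share in KMS18 is near its background. ERLIN1 and EDEM3 passed in KMS18, and SYVN1, DERL3, ERLIN1 and NGLY1 in KMS28BM.

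**Figure D3:**
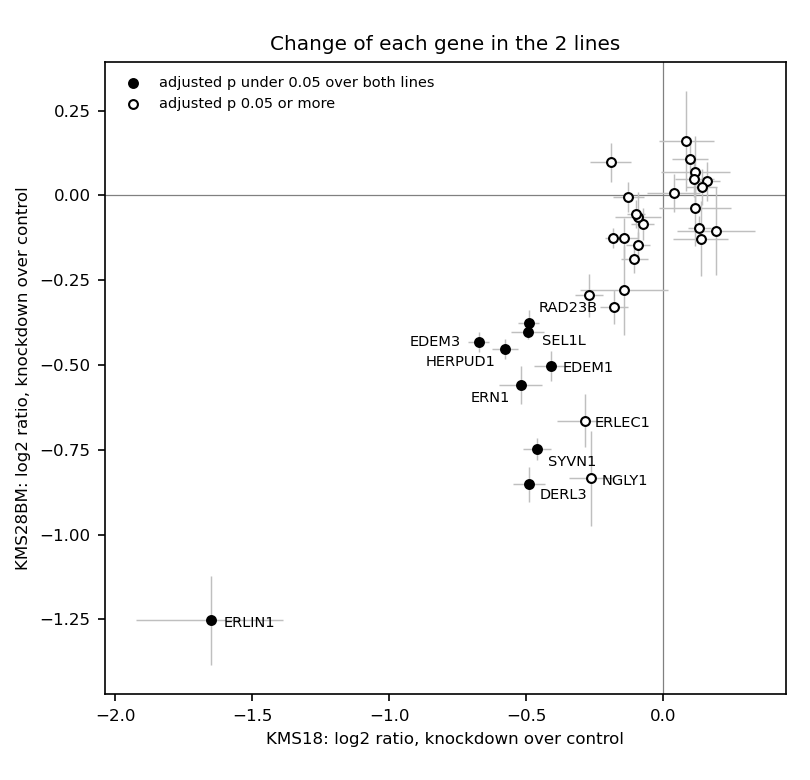
Log2 ratio of TMM-scaled counts, knockdown over control, in KMS18 (x axis) and KMS28BM (y axis), with exact Poisson 95% intervals as bars. Filled points are the 9 genes past the test over both lines, all in the lower left, and 29 of the 34 genes have the same sign in both lines.

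Further ERAD genes outside the 34 changed in both directions. Of 71, 13 fell (18.3%) and 3 rose (4.23%), against the same backgrounds of 5.25% and 3.57%, and their median log2 difference was -0.09. TXNDC11, an ER thioredoxin-like partner of the EDEM proteins, was at 93.17 and 103 FPKM in KMS18 and KMS28BM knockdown cells against 202 and 242 FPKM in control cells (log2 difference -1.25, SE 0.10 and edgeR adjusted p = 0.0034). UBE4A, a ubiquitin chain-elongating ligase, fell by 0.78 (SE 0.09), and RNF103, a ligase of the ER membrane, fell by 0.70 (SE 0.11). DNAJC10, the ER reductase that opens disulfides before export, and the translocon subunits SEC61G and SEC61A1 also fell, with edgeR adjusted p from 0.0221 to 0.0226.

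Those that rose were UBAC2, TMEM129 and UBXN6. UBAC2, a membrane partner of FAF2, was at 28.68 and 20.80 FPKM in KMS18 and KMS28BM knockdown cells against 13.19 and 11.97 FPKM in control cells (log2 difference 0.89, SE 0.13 and edgeR adjusted p = 0.0117). TMEM129, an ER ligase, rose by 0.54 (SE 0.10), and UBXN6, a VCP cofactor, by 0.50 (SE 0.10). UFD1, which pairs with NPLOC4 on VCP, had a log2 difference of -0.11 (SE 0.11 and edgeR adjusted p = 0.571).

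Among genes downstream of the sensors or acting with them, 13 of 30 fell (43.3%) and 0 rose, with a median of -0.32. At an unadjusted edgeR p under 0.05, 17 of the 30 were lower and 0 higher, against 3919 of all 14870 genes tested in either direction. DESeq2 and limma called 0 of the 30 higher. The 6 with the smallest p were SPCS3, CREB3L2, XBP1, SEC24D, PDIA4 and SRPRB. CREB3L2, a membrane-held transcription factor of the ATF6 type, was at 12.99 and 24.94 FPKM in KMS18 and KMS28BM knockdown cells against 23.71 and 51.56 FPKM in control cells (log2 difference -1.05, SE 0.10 and edgeR adjusted p = 0.00507). The PERK outputs ATF4 and DDIT3 did not pass and split between the lines: ATF4 had -0.21 (SE 0.16 and edgeR adjusted p = 0.464) and DDIT3 had -0.12 (SE 0.19 and edgeR adjusted p = 0.752). CHAC1, TRIB3, ATF3, PPP1R15A and PPP1R15B, also among the 30, did not pass either. They too were lower in KMS18 and higher in KMS28BM by more than counting error. The 34 genes and both lists were chosen with earlier results of these data known, so their shares are descriptions. With no filter on low counts 2 of the 71 further ERAD genes were lower and 1 higher, and without the cell line block 0 of either list passed.

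**Figure D4:**
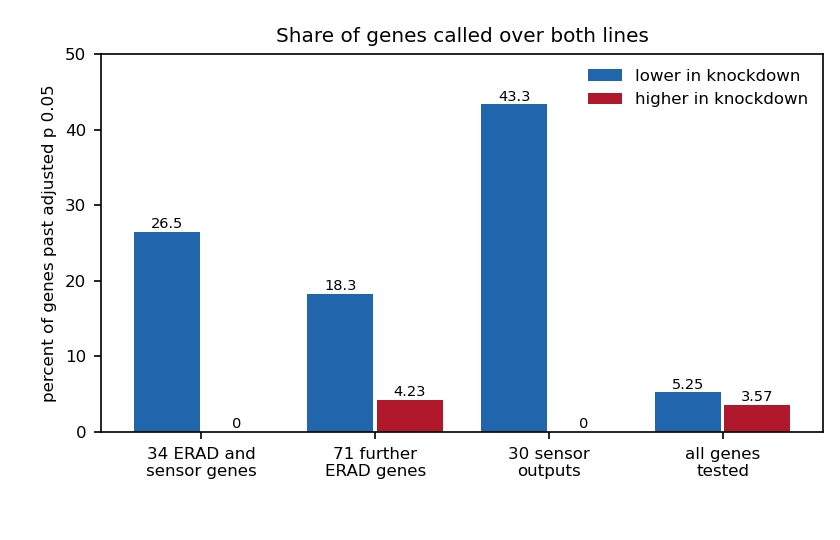
Percent of genes called lower (left bar) and higher (right bar) in the knockdown over both lines, by edgeR adjusted p under 0.05. The 34 genes stand at 26.5% lower and 0% higher, and all 14870 genes tested at 5.25% and 3.57%.

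Sequence in the 3' untranslated region (3' UTR) was read for the 34 genes because an earlier look at these data found AGTCTA with a C before it or an A after it in many genes lowered by the knockdown. In GENCODE version 29 coding transcripts (GRCh38), none of the 34 genes held CAGTCTAA, 6 held CAGTCTA or AGTCTAA, 1 held AGTCTA alone and 27 held none of them. Among 12769 genes tested with a 3' UTR, 2.47% held CAGTCTAA and 11.5% held CAGTCTA or AGTCTAA. The sites of the 3 genes that fell and of 3 that did not pass are shown on the transcript strand, with the match in capitals.
ERLIN1 (chr10:100150146-100150175, minus strand): actgtaatcttgAGTCTAAatttatatgtt
ERN1 (chr17:64043635-64043664, minus strand): ctgcttaatgtCAGTCTAcaggcctttcag
SEL1L (chr14:81475403-81475432, minus strand): ctagatttaactAGTCTAtaatgaacatga
UBE2J1 (chr6:89328013-89328042, minus strand): tgaatttgttaaAGTCTAAaaagctcaagg
EIF2AK3 (chr2:88556759-88556788, minus strand): tgacttctttcaAGTCTAAatgatttaata
RNF5 (chr6:32180697-32180726, plus strand): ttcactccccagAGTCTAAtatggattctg

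Of the 6 genes with CAGTCTA or AGTCTAA, ERLIN1 and ERN1 fell, and UBE2J1, EIF2AK3, RNF5 and ERLIN2 did not pass the test. The genes that fell without any AGTCTA were SYVN1, DERL3, HERPUD1, EDEM1, EDEM3 and RAD23B, 6 of 27 (22.2%). Over all genes tested, 3.64% of the 9603 without AGTCTA fell, 7.36% of those with AGTCTA alone, 14.5% of those with CAGTCTA or AGTCTAA and 27.2% of those with CAGTCTAA. Median log2 differences over all genes tested were 0.04, -0.06, -0.10 and -0.26 in the same order. The pattern was picked from genes lowered in these same data, so these shares and medians describe it and do not test it. The genes with a match also have longer 3' UTRs, with medians of 2847 to 3622 bases against 1004 bases without, and the part of UTR length was not tested.

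SEL1L, SYVN1 and HERPUD1 were higher in KMS28BM than in KMS18 under either construct. Of the 7 genes of the HRD1 complex 4 were higher in KMS28BM and 2 lower (HERPUD2 and DERL1), and DERL3 did not pass. In the same fit, with construct as the covariate, 17 of 34 genes were higher in KMS28BM (50%, background 30.6%) and 8 lower (23.5%, background 32.3%). The 34 genes together took 0.622% and 0.719% of the counts in KMS28BM knockdown and control cells, against 0.450% and 0.499% in KMS18 knockdown and control cells. SEL1L differed most, at 118 and 147 FPKM in KMS28BM knockdown and control cells against 14.33 and 19.48 FPKM in KMS18 knockdown and control cells (log2 difference 2.91, SE 0.11 and edgeR adjusted p = 2.19e-06). By FPKM it ranked 6 and 5 of the 34 genes in KMS28BM knockdown and control cells, and 29 and 27 in KMS18 knockdown and control cells.

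HERPUD1 (log2 difference 1.24, SE 0.10) and SYVN1 (1.14, SE 0.11) were also higher in KMS28BM, with edgeR adjusted p of 6.26e-05 and 0.000145. MRPL49, whose exons overlap those of SYVN1, was higher by 1.10 (SE 0.10 and edgeR adjusted p = 9.97e-05). ERLIN1, at 8.97 and 21.00 FPKM in KMS28BM knockdown and control cells against 2.49 and 6.03 FPKM in KMS18, was higher by 1.76 (SE 0.15 and edgeR adjusted p = 7.91e-05). CHUK, whose exons overlap those of ERLIN1, was higher by 1.30 (SE 0.10 and edgeR adjusted p = 6.1e-05). UBE2J2 was at 90.02 and 88.01 FPKM in KMS28BM knockdown and control cells against 32.87 and 30.53 FPKM in KMS18 (1.43, SE 0.09 and edgeR adjusted p = 2.73e-05). Of the 6 extraction and delivery genes 3 were higher in KMS28BM and 2 lower. FAF2 was higher by 0.74 (SE 0.09), NPLOC4 by 0.57 (SE 0.10) and VCP by 0.35 (SE 0.09), and NGLY1 and UBXN4 were lower. AUP1 was higher by 0.40 (SE 0.09). FAF2, NPLOC4, VCP and AUP1 had edgeR adjusted p from 0.000485 to 0.0163. HTRA2, whose exons overlap those of AUP1 on the opposite strand, was higher by 0.66 (SE 0.11 and edgeR adjusted p = 0.00221). The part of reads from overlapping neighbours in the line differences of SYVN1, ERLIN1 and AUP1 was not tested. EDEM1, EDEM3 and ERLEC1 were higher by 0.69, 0.68 and 0.63 (SE 0.09, 0.11 and 0.12).

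The 8 genes lower in KMS28BM were led by NGLY1 and HERPUD2. NGLY1 was at 8.01 and 14.25 FPKM in KMS28BM knockdown and control cells against 29.85 and 33.81 FPKM in KMS18 (log2 difference -1.65, SE 0.15 and edgeR adjusted p = 0.000115). HERPUD2 was at 11.43 and 9.07 FPKM in KMS28BM against 21.19 and 22.37 FPKM in KMS18 (-1.23, SE 0.11 and edgeR adjusted p = 0.0001). The paralogs of the HERP pair thus ran in opposite directions: HERPUD1 stood at 22.1 and 35.8 times the FPKM of HERPUD2 in KMS28BM knockdown and control cells, and at 4.55 and 6.10 times in KMS18 knockdown and control cells. DERL1, UBE2G2, EDEM2 and UBXN4 were the other degradation genes lower in KMS28BM, by -0.37 to -0.74 on the log2 scale.

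The sensors split between the lines. ERN1 was higher in KMS28BM by 0.75 (SE 0.09 and edgeR adjusted p = 0.000452), while EIF2AK3 differed by -0.56 (SE 0.10 and edgeR adjusted p = 0.00191) and ATF6B by -0.75 (SE 0.10 and edgeR adjusted p = 0.000515). ATF6 did not pass (-0.08, SE 0.10 and edgeR adjusted p = 0.491, and 0.20 on the log2 scale with limma). Each line is 1 line. The spread behind these values is how far the constructs disagree on the difference between lines, moderated by the spread over all genes tested.

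**Figure D5:**
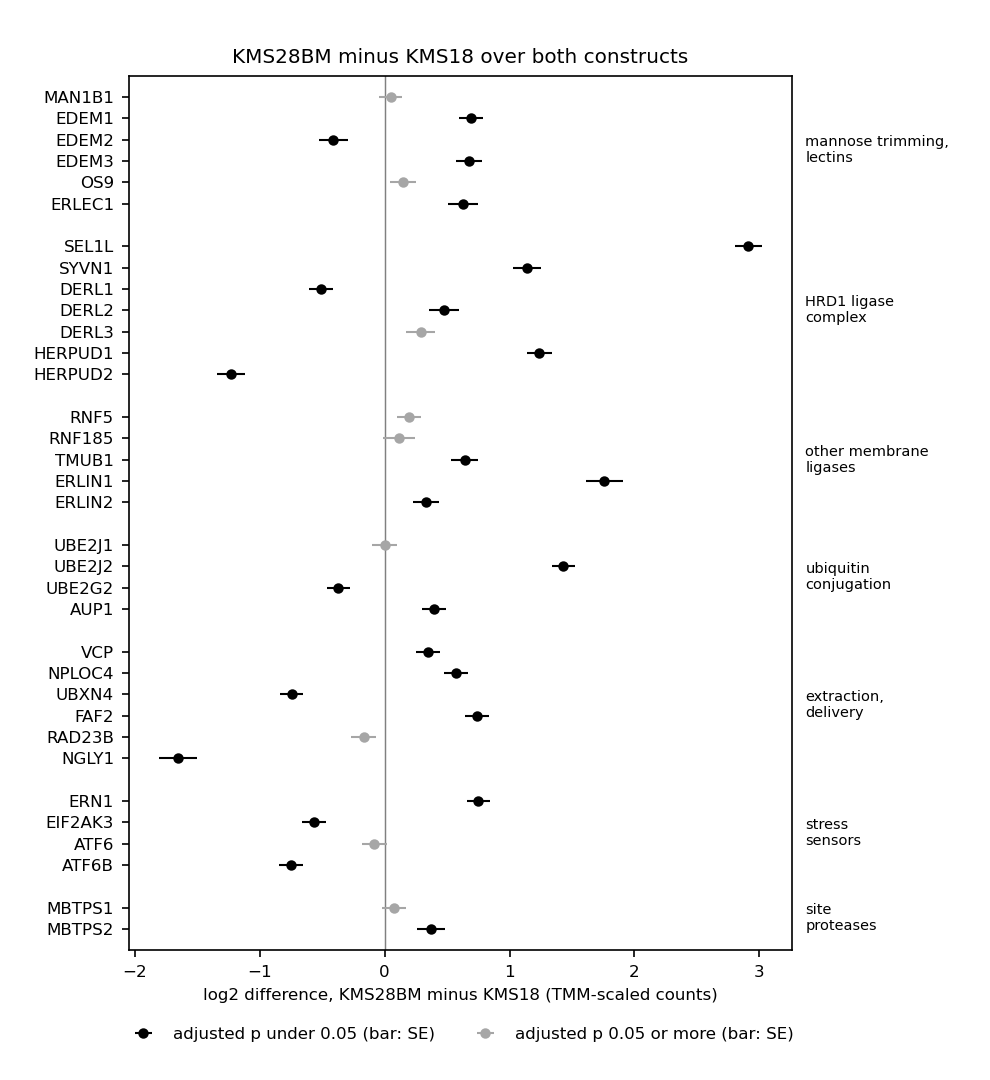
Log2 difference, KMS28BM minus KMS18, of the 34 genes over both constructs with its standard error, grouped by role and black where the edgeR adjusted p is under 0.05. SEL1L stands farthest right at 2.91 and NGLY1 farthest left at -1.65.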

How the data were processed

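Each library has 1 gene table from the authors, holding an expected count made by their quantification, an FPKM value scaled by gene length and library size, and a gene length in bases, per the file headers. STAR, Bowtie2 and HISAT, and both GRCh37 and hg19, appear in the submitters' processing notes with no roles, and which program counted reads was not stated. Libraries came from 100 ng of total RNA with a TruSeq version 2 kit, per the labels' protocols. Coordinates come from GENCODE version 29 and RefSeq on GRCh38 and were not converted.

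Identifiers with the same symbol were added up. Counts were rounded and tested with edgeR 4.0.16 (R 4.3.3, TMM scaling, default filter with minimum count 10, cell line and construct in the model, 1 residual degree of freedom, prior 5.85). The SE is the log2 difference over the root of the F statistic. Alternatives used DESeq2 1.42.0, limma 3.58.1 (pseudocounts 1 and 0.1), other scalings and filters. Intervals are exact conditional binomial at 95%. The fit was tested on simulated data. The genes, lists and searches were chosen with earlier results of these data known. The text names all 34 genes, PRKCA, plasma cell markers, and up to 6 called genes per list and direction by smallest p. Genes named outside this rule (UFD1, ATF4, DDIT3, CHAC1, TRIB3, ATF3, PPP1R15A, PPP1R15B, MRPL49, SMARCB1, CHUK, HTRA2, CD3E, CD3D, CD3G, CD2, TRAC) were chosen after their values were seen. No per-sample column was left unused.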

Additional observations from a re-analysis of the deposited data

Results flagged for a closer look

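For 3 of the 34 genes the 2 lines moved in opposite directions by more than counting error. The share of all genes that did so was not measured. Of 14003 genes tested, 70.7% had the same sign in both lines, against 85.3% of the 34. The log2 count ratio of EDEM2 was 0.14 in KMS18 and -0.13 in KMS28BM. OS9 had 0.13 in KMS18 and -0.10 in KMS28BM. TMUB1 had -0.19 in KMS18 and 0.10 in KMS28BM. With 1 library per construct in a line, the difference between lines was not tested.

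Among other named genes, ATF4 had -0.53 in KMS18 and 0.12 in KMS28BM, and DDIT3 had -0.45 in KMS18 and 0.21 in KMS28BM. MRPL49 had -0.0833 in KMS18 and 0.0803 in KMS28BM. In the same order of lines, CHAC1 had -0.81 and 0.39, TRIB3 -0.28 and 0.58, and ATF3 -0.45 and 0.50. PPP1R15A had -0.18 and 0.36, and PPP1R15B -0.34 and 0.08. These differences were not tested either.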

How the results depend on the processing

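The count of 9 lower genes was 9 with median of ratios scaling, with DESeq2 and at 5 CPM in at least 2 libraries, 7 with upper quartile scaling, and 6 with limma on either pseudocount and with 1 row per symbol. With no filter on low counts it was 1, and the further ERAD genes had 2 lower and 1 higher. Without the replicate block for cell line, 0 of the 34 genes, 0 and 0 of the further ERAD genes and 0 of the sensor outputs passed lower or higher, and all genes together had 0 calls (215 at an unadjusted p under 0.05). The cause was not tested. Counts between lines and within a line stayed within 1.5 times.

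Under the other scalings, filters and tools, 7 of the log2 differences changed sign, each from a gene that passed the test under neither setting. With KMS28BM alone, which has no test, EDEM2 (-0.13), OS9 (-0.097), RNF185 (-0.10), TMUB1 (0.098) and MBTPS2 (-0.038) also had the opposite sign from both lines together. For the knockdown these were EDEM2 with no filter (-0.0026) and DERL2 with limma at pseudocounts 1 and 0.1 (0.0031 and 0.0034). Between lines they were UBE2J1 at 5 CPM (-0.013) and with 1 row per symbol (-0.0031), and ATF6 with limma (0.20 at both pseudocounts). The share of calls over all genes that were lower was 59.5%, against 51.0% with upper quartile scaling and 47.3% with limma at pseudocount 1. With 1 library per construct, the interval of a within-line value covers counting error only.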
